A study of Mus musculus with 4 samples.

Results

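The genes for the proteins of the cytosolic ribosome were followed in a pair of fractions sorted from mouse embryonic stem (ES) cells during differentiation. Members were taken by gene symbol: every Rpl or Rps symbol followed by a number, with Rpsa, Rplp0, Rplp1 and Rplp2, and without pseudogenes and the Rps6k kinases. This gave 88 of the 20660 genes with a symbol on the array. The naming rule used no measured value, but it was set with earlier results of these data known. Of the 88, 77 encode the core proteins of the ribosome, 46 of the large (60S) and 31 of the small (40S) subunit. The rest are 8 paralogs (Rpl3l, Rpl7l1, Rpl10l, Rpl22l1, Rpl36al, Rpl39l, Rps4l and Rps27l) and 3 further symbols that fit the pattern. Of those 3, Rps19bp1 encodes a protein that binds Rps19 and is no ribosomal protein, Rps23rg1 is a retroposed gene derived from Rps23, and Rpl32l is an Rpl32-like gene. RefSeq lists Rps4l as a transcribed pseudogene.

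The cells were of the EB5 ES cell line, in which Venus fluorescence reports on the homeobox gene Hoxb6. Both fractions carried the reporter, grew on OP9 stromal feeder cells for 6 days and were sorted for Flk-1, the product of Kdr and a receptor for VEGF. The first fraction was Venus-positive and the second Venus-negative, each measured on 2 single-colour Agilent arrays. Whether the reporter line was 1 clone, and whether the 2 arrays of a fraction came from separate cultures, is not given in the sources used here, so the p-values reflect the spread of these samples alone, and that spread may be technical. The second Venus-negative array read higher than the first in 83 of the 88 members, against 55.6% of all features, so the main counts are also given without it. The second Venus-positive array likewise read higher than the first in 69 members, against 49.7% of all features.

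Ribosomal proteins assemble with ribosomal RNA into the subunits that read messenger RNA and join amino acids. They are needed in about equal amounts, and vertebrate cells coordinate them partly at translation: their mRNAs start with a C followed by a run of pyrimidines, the 5′ terminal oligopyrimidine (TOP) motif, through which mTOR and the binding protein Larp1 act. Mutations of single members cause Diamond-Blackfan anaemia in people and patterning, skin or blood defects in mice.

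No member passed the test between the fractions, and the levels of nearly all members lay within a narrow band of each other's change. With limma across 23548 features (13926 genes and 9622 unnamed probes), 0 of the 88 members had an adjusted p under 0.05, against 2.14% of all features. At an unadjusted p under 0.05, 10 members were lower in Venus-positive cells, a share of 11.4%, against 11.4% of all features, and 0 were higher, against 12.3% of all features. The members' median log2 change, Venus-positive minus Venus-negative, was -0.11, with 75 of 88 changes below 0, but under quantile normalization the median turned to 0.0040 with 38 of 88 below 0. Over all features the reported median was 0.0029. The share of members on the low side at an unadjusted p was that of the array as a whole. Without the second Venus-negative array 0 members and 0 features in all passed. In that fit 1 member was lower at an unadjusted p under 0.05, against 8.58% of all features, and 0 were higher, against 10.7%. The median was -0.051, with 61 of 88 changes below 0. In bulk samples of this kind, fewer cells of a type and less RNA per cell cannot be told apart.

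The members' changes lay nearer 0 than those of the array as a whole. The change lay within 0.2 log2 units of 0 in 72 members (81.8%), against 45.2% of all features. The share was also 81.8% among 77 mitochondrial ribosomal protein genes, and 73.7% among 19 elongation factor and other TOP mRNA genes. It was therefore not particular to the family. A change of 1 log2 unit or more was seen in 1 member, Rpl3l, against 8.03% of all features. Features of like brightness were not compared. The 95% interval of the change lay wholly within a 2-fold difference in either direction for 85 of the 88 members and for 77 of the 77 core genes. The other members were the dim paralogs Rpl3l, Rpl10l and Rpl39l. On the brightest probe of each core gene, then, a difference of 2-fold or more lay outside the interval. Differences of the size of the members' median did not. Of the core genes' other probes, 1 each of Rpl17 and Rpl7a had a change beyond 2-fold (-1.57 and -1.46). These transcripts are bright: the median member's probe was at percentile 99.1 of brightness, 80 of 88 lay in the top 5%, the brightest member signal reached 58.4% of the scanner's saturation value, and 0 of the members' spots were saturated.

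**Figure D1:**
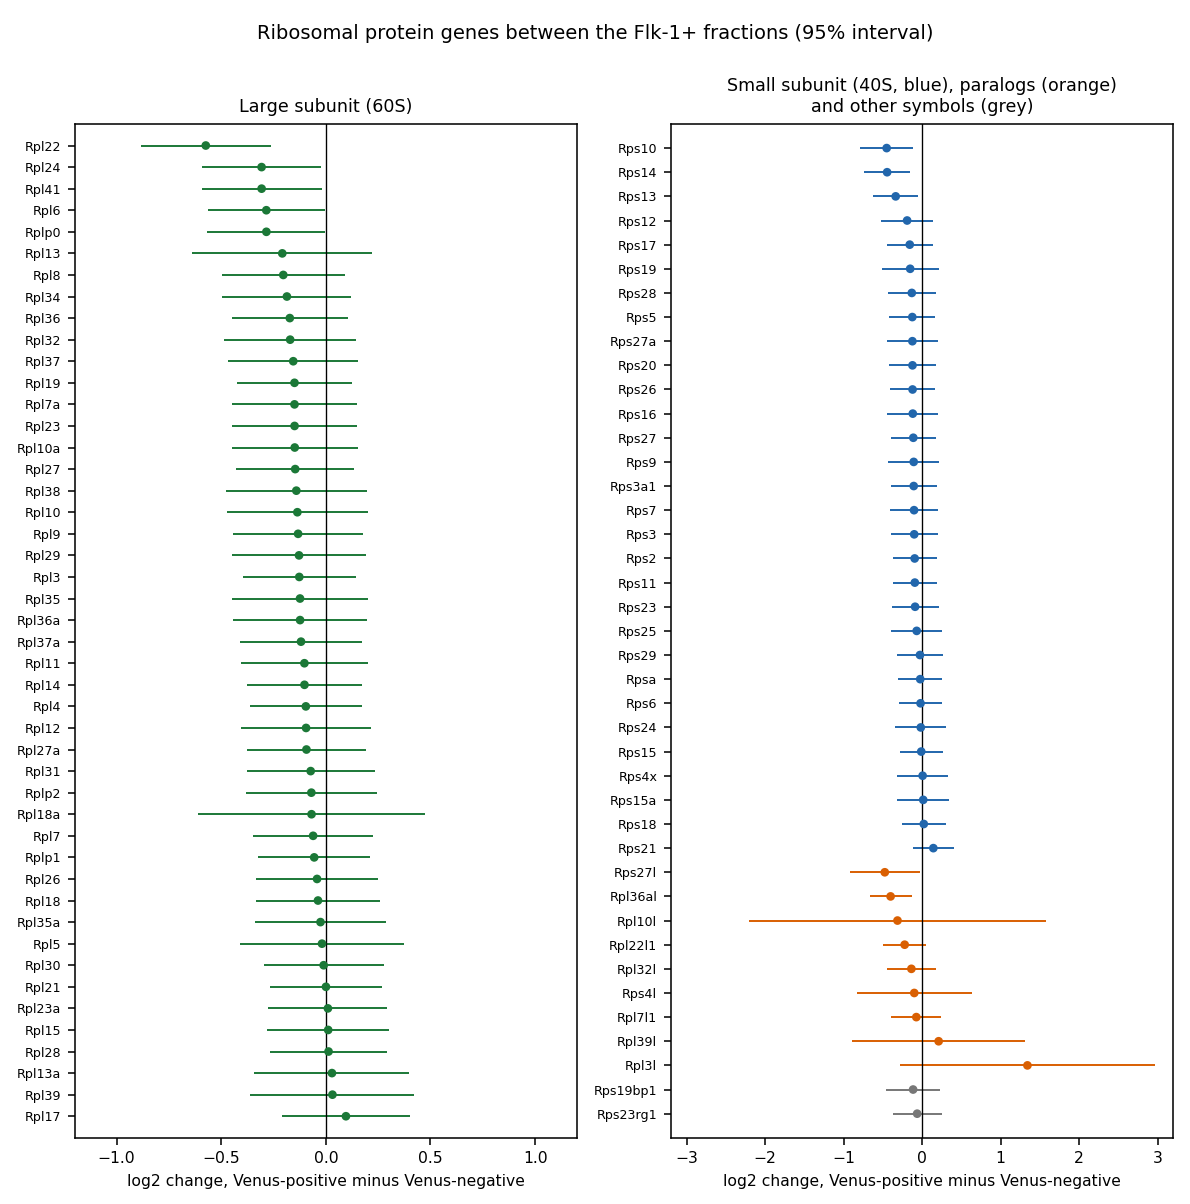
Each point is the log2 change (Venus-positive minus Venus-negative, 2 arrays each) of 1 of 87 of the ribosomal protein genes, with its 95% interval as a line. The left panel holds the 60S genes. The right panel, on a wider axis, holds the 40S genes (blue), paralogs with Rpl32l (orange) and other symbols (grey). Points run from -0.57 (Rpl22) to 1.34 (Rpl3l), and most lie just left of 0 under the reported scaling, a side that the median left under quantile normalization.

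The level of the whole family differed between the Venus-negative replicates by about as much as between fractions, and by less between the Venus-positive replicates. The members' median log2 level, relative to each array's 75th percentile of signal, was 8.91 and 8.92 on the Venus-positive arrays, against 8.95 and 9.04 on the Venus-negative arrays. The second Venus-negative array was the highest, above the first by a median of 0.12 log2 units. Between the Venus-positive arrays the same median, second minus first, was 0.048. Pairing single arrays of the 2 fractions gave median changes of -0.078, -0.19, -0.018 and -0.13. Without the first Venus-negative array the median was -0.16, with 83 of 88 changes below 0. Arrays of replicate 1 lay in the first and those of replicate 2 in the second row of the slide. The 2 fractions lay in different columns, so slide column and fraction cannot be told apart.

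**Figure D2:**
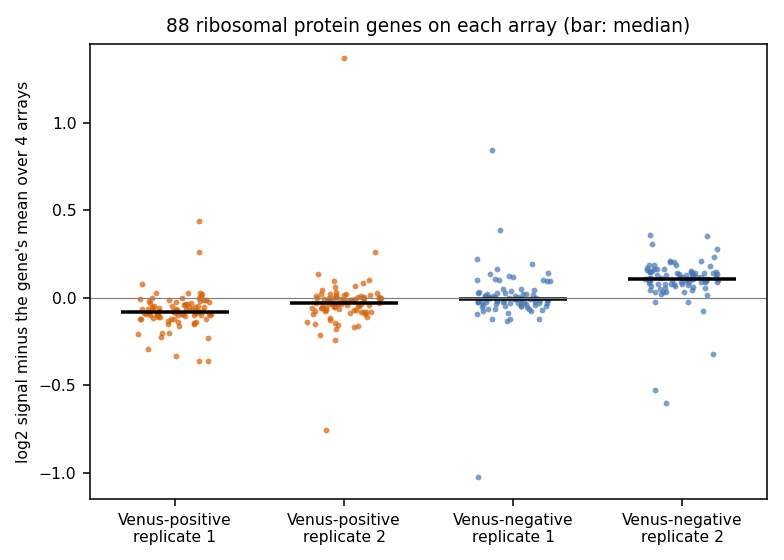
Each point is the log2 signal of 1 of the 88 genes on 1 array minus its mean over the 4 arrays, and each bar is an array's median. The medians were -0.081 and -0.030 on the Venus-positive arrays and -0.0072 and 0.11 on the Venus-negative arrays, and the second Venus-negative array stands apart.

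Where the fractions did not overlap under the reported scaling, the Venus-positive values were mostly the lower ones. In 46 members both Venus-positive values lay below both Venus-negative values, 52.3% of the members against 28.4% of all features, and in 3 members both lay above, 3.41% against 29.1% of all features.

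The 46 large-subunit genes had a median log2 change of -0.12, with 39 below 0. At an unadjusted p under 0.05, 0 were higher, against 12.3% of all features, and 5 were lower, 10.9% against 11.4% of all features. These 5 were Rpl22, Rpl24, Rpl41, Rpl6 and Rplp0. Rpl22, an RNA-binding 60S protein needed for T cell development in mice, was at 8.25 and 8.34 in Venus-positive cells, against 8.80 and 8.93 in Venus-negative cells. Both Venus-positive arrays were below both Venus-negative arrays, by more than the replicates of either fraction differed. The log2 change was -0.57 ± 0.11 (SE), 1.49-fold lower, with an adjusted p of 0.096. It was the largest decrease among the probes that represent the 88 genes, but its call depends on the variance model and the background correction: the adjusted p was 0.022 with a signal-dependent variance prior and 0.037 with normexp background correction. A second Rpl22 probe, at 5.58 and 5.32 in Venus-positive and 5.47 and 5.25 in Venus-negative cells, had a log2 change of 0.091 ± 0.16, so the 2 probes did not give the same direction. With the mean over both probes the gene's change was -0.24 ± 0.10 (adjusted p 0.27).

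Its paralog Rpl22l1, which can replace it in the ribosome, was at 7.93 and 7.99 in Venus-positive cells, against 8.18 and 8.18 in Venus-negative cells (log2 change -0.22 ± 0.096, adjusted p 0.27). The 2 genes therefore lay on the same side under the reported scaling, and neither passed the test. Rpl24, a 60S protein at the face between the subunits whose loss in the Belly spot and tail mouse alters pigment and skeleton, was at 8.93 and 8.92 in Venus-positive cells, against 9.19 and 9.28 in Venus-negative cells (-0.31 ± 0.10, adjusted p 0.19). Rpl41, the smallest ribosomal protein, was at 9.37 and 9.38 in Venus-positive cells, against 9.63 and 9.73 in Venus-negative cells (-0.31 ± 0.10, adjusted p 0.19). On these probes of both genes the Venus-positive replicates were nearly equal and below both Venus-negative arrays. A second Rpl24 probe gave -0.042 ± 0.11, with overlap between the fractions. Rpl6, another 60S protein, was at 8.90 and 8.86 in Venus-positive cells, against 9.13 and 9.20 in Venus-negative cells (-0.28 ± 0.098, adjusted p 0.21). Its other probes gave -0.12 ± 0.10, -0.18 ± 0.097 and, on a dim probe, -0.35 ± 0.17.

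The 3 stalk proteins, which recruit elongation factors to the large subunit, all lay below 0. Rplp0, the base of the stalk, was at 9.57 and 9.57 in Venus-positive cells, against 9.81 and 9.90 in Venus-negative cells (-0.28 ± 0.10, adjusted p 0.21). Rplp1 and Rplp2, which pair on that base, had smaller changes of -0.056 ± 0.094 and -0.069 ± 0.11, and both turned positive under quantile normalization and cyclic loess. Rpl5 and Rpl11, which with 5S ribosomal RNA bind Mdm2 when ribosome assembly fails, had changes of -0.018 ± 0.14 and -0.10 ± 0.11. Their direction was likewise not stable, both being above 0 under quantile normalization and cyclic loess.

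The 31 small-subunit genes had a median log2 change of -0.10, with 27 below 0. At an unadjusted p under 0.05, 0 were higher, against 12.3% of all features, and 3 were lower, 9.68% against 11.4% of all features. Rps10, a protein of the subunit's head and a Diamond-Blackfan anaemia gene, was at 9.36 and 9.49 in Venus-positive cells, against 9.80 and 9.96 in Venus-negative cells (-0.45 ± 0.12, adjusted p 0.15). Rps14, a platform protein whose loss of 1 copy contributes to the anaemia of human 5q- syndrome, was at 9.42 and 9.43 in Venus-positive cells, against 9.82 and 9.93 in Venus-negative cells (-0.45 ± 0.10, adjusted p 0.12). Rps13 was at 8.53 and 8.59 in Venus-positive cells, against 8.85 and 8.94 in Venus-negative cells (-0.34 ± 0.10, adjusted p 0.17). On these probes of the 3 genes the fractions did not overlap. A second Rps13 probe gave a smaller change of -0.098 ± 0.11. The highest small-subunit gene was Rps21, at 4.74 and 4.72 in Venus-positive cells, against 4.59 and 4.59 in Venus-negative cells (0.14 ± 0.093, adjusted p 0.43).

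With a variance prior that depends on signal, 6 members had an adjusted p under 0.05, all lower: Rpl22, Rps14, Rpl36al, Rps13, Rps10 and Rpl24, with adjusted p between 0.022 and 0.049, and 1654 of the 23548 features passed. With normexp background correction the count was 1, Rpl22, and 1304 features passed. It was 0 under each of the other alternatives run, including those without 1 of the arrays and the one without the filter on dim probes, in which 0 features in all passed. Centred on the family's own median on each array, 0 members passed. At an unadjusted p under 0.05, 4 were lower, against 8.40% of all features, and 0 higher, against 15.8%. On that scale Rpl22 was -0.49 ± 0.11 (adjusted p 0.10), Rps10 -0.37 ± 0.11, Rps14 -0.37 ± 0.10 and Rpl36al -0.32 ± 0.11.

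The start sites of some of these genes are shown because the TOP motif at the first transcribed base is the shared feature of the family. Each is a 30-base window of RefSeq's mouse assembly GRCm38.p6, 15 bases before the annotated start and 15 from it, written 5′ to 3′ on the gene's strand, with pyrimidine runs of 6 or more in capitals. Rps10 (chr17:27635230-27635259, minus strand) and Rpl38 (chr11:114668565-114668594, plus strand) have the C at the start followed by 4 pyrimidines. Rpl6 (chr5:121204486-121204515, plus strand) and Rpl22l1 (chr3:28805493-28805522, plus strand) have a run elsewhere in the window. Rpl22 (chr4:152325711-152325740, plus strand), Rpl24 (chr16:55966260-55966289, plus strand) and Rps13 (chr7:116334176-116334205, minus strand) have none at this start, and a second RefSeq start of Rpl22 has none either.
Rps10: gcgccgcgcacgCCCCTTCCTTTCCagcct
Rpl38: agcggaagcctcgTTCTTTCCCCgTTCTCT
Rpl6: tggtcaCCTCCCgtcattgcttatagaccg
Rpl22l1: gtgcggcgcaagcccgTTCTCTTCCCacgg
Rpl22: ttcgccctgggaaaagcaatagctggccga
Rpl24: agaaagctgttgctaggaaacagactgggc
Rps13: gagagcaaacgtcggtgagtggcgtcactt

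Of the 88 members, 67 matched a RefSeq promoter entry, with 79 starts. A pyrimidine run of 6 or more on the gene's strand lay in the window of 51.9% of the members' starts, against 29.2% of 32851 starts of all genes. The stricter form, a C at the start followed by 4 pyrimidines, was at 17.7% of the members' starts, against 2.51% of all. CCGGAA on either strand, the core letters of ETS factor sites, was in the 300-base promoter of 45.6% of the members' starts, against 14.9% of all, and the E-box CACGTG in 10.13%, against 7.15%. The 14 genes with the strict form at a start had a median log2 change of -0.047 and the other 53 genes -0.12. The changes ran from -0.45 to 0.14 in the 14 genes and from -0.57 to 1.34 in the 53, and a match of letters in a window is a description and no measured start.

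Members with mutants that alter mouse development were described together, since they are the ones most discussed in mesoderm patterning. Of these 11 genes, 0 passed the test, all 11 changes were below 0 under the reported scaling, and the median was -0.14; Rpsa and Rps6 were among those above 0 under quantile normalization. Rpl38, needed in mice for translation of certain Hox mRNAs and for the axial skeleton, was at 9.25 and 9.30 in Venus-positive cells, against 9.32 and 9.51 in Venus-negative cells. Its log2 change was -0.14 ± 0.12 (adjusted p 0.53), with an interval from -0.48 to 0.19, while the Hoxb6 transcript was at 2.00 and 2.24 in Venus-positive cells, against 1.23 and 0.98 in Venus-negative cells. A second Rpl38 probe gave -0.32 ± 0.11. Rpl10a and Rpl10, both 60S proteins, had changes of -0.15 ± 0.11 and -0.14 ± 0.12. Rps19, the first gene found mutated in Diamond-Blackfan anaemia, was at 7.79 and 7.94 in Venus-positive cells, against 7.93 and 8.11 in Venus-negative cells, with overlap between the fractions (-0.15 ± 0.13, adjusted p 0.53). Rps20, Rps7 and Rpl27a had changes of -0.12, -0.10 and -0.093. Among the 19 Diamond-Blackfan anaemia genes in the family, 0 passed the test, the median was -0.10, and 1, Rps10, was lower at an unadjusted p under 0.05, 5.26% of the list against 11.4% of all features.

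Of the 8 paralogs, 2 (25%) had a change within 0.2 log2 units of 0, against 67 of the 77 core genes and 45.2% of all features. Several paralogs were dim, and their median SE was 0.21, against 0.11 for the core genes. The contrast is therefore not read as a difference between paralogs and core genes. Rps27l, an Rps27 paralog induced by p53 in human cells, was at 6.36 and 6.61 in Venus-positive cells, against 6.84 and 7.08 in Venus-negative cells (-0.47 ± 0.16, adjusted p 0.19), while Rps27 itself had a change of -0.11 ± 0.100. Rpl36al, a retroposed copy of Rpl36a that is expressed widely, was at 6.47 and 6.51 in Venus-positive cells, against 6.89 and 6.90 in Venus-negative cells (-0.40 ± 0.095, adjusted p 0.12), and its X-linked parent had a change of -0.12 ± 0.11. For both paralogs the fractions did not overlap. Whether a probe of such near-identical copies also binds transcripts of the parent gene was not tested.

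Paralogs known mainly from testis or muscle were dim. Rpl10l, which replaces Rpl10 in male germ cells, was at 1.098 and -0.094 in Venus-positive cells, against 1.4998 and 0.13 in Venus-negative cells, so that the replicates differed more than the fractions (-0.31 ± 0.67). Rpl39l was at -1.09 and -1.40 in Venus-positive cells, against -0.96 and -1.95 in Venus-negative cells (0.21 ± 0.39), again with overlap. Rpl3l, the form of Rpl3 found in heart and skeletal muscle, was the exception among the 88 in not being well above background on all 4 arrays. It was at -4.31 and -2.91 on the 2 Venus-positive arrays, on both of which it was well above background, against -5.30 and -4.60 on the Venus-negative arrays, on neither of which it was. With values under their array's lowest signal well above background raised to that signal, the Venus-positive mean of Rpl3l was 2.18-fold higher. This is a difference of means and no lower bound. The tested log2 change of 1.34 had an interval from -0.29 to 2.97, which includes 0, and an adjusted p of 0.27. As Rpl3l entered the test through the fraction in which it was brighter, its difference is only described. Rps4l and Rpl7l1 had changes of -0.099 ± 0.26 and -0.073 ± 0.11.

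The array carries several probes for 53 of the 88 genes, 178 in all, of which 177 were tested, and they do not all tell the same story. Fitted over 27899 probes, 2 of the 177 passed, both lower, against 1.5% of all probes that passed on that side. At an unadjusted p under 0.05, 20 were lower, against 11.7% of all probes, and 0 higher, against 12.3%. The 2 are not the probes that represent their genes. Rpl17, a 60S protein at the exit of the peptide tunnel, has 7 probes, and on 1 of them (A_55_P2057519) the level was 3.70 and 3.93 in Venus-positive cells, against 5.26 and 5.50 in Venus-negative cells (-1.57 ± 0.15, 2.96-fold lower, adjusted p 0.041). The other 6 Rpl17 probes had changes between 0.035 and 0.11. Rpl7a, a 60S protein, has 4 probes, and on 1 of them (A_55_P2024080) the level was 6.49 and 6.51 in Venus-positive cells, against 7.95 and 7.98 in Venus-negative cells (-1.46 ± 0.095, 2.75-fold lower, adjusted p 0.031). The other 3 Rpl7a probes had changes of -0.15, -0.16 and -0.027. On both of these probes the fractions were far apart and the replicates close, and the changes without any 1 of the 4 arrays stayed between -1.69 and -1.44 for Rpl17 and between -1.47 and -1.45 for Rpl7a. Neither probe passed in those fits (adjusted p 0.11 to 0.15) or without the filter on dim probes (0.14 and 0.13), but in these fits 0 probes of the whole array passed. Both probes were picked for their values, and the array annotates them to the same transcript as the gene's other probes.

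A further probe stood apart without passing: 1 of 4 Rpl31 probes had a change of -0.51 ± 0.11, against -0.072 on the brightest. In all, 16 genes had probes with changes of both signs, and the median difference between the highest and lowest probe of a gene was 0.13 log2 units, larger than the family's median change.

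**Figure D3:**
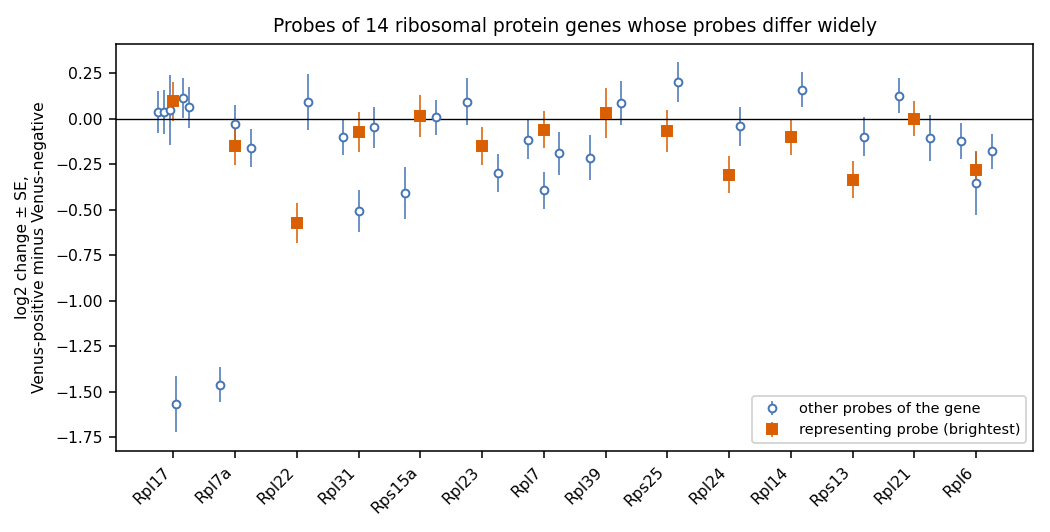
Log2 change (Venus-positive minus Venus-negative) ± SE of every tested probe of 14 members whose probes differ widely, with the brightest probe, which represents the gene, as a square and the others as circles. 1 probe each of Rpl17 and Rpl7a lies near -1.5, while the other probes of these genes lie near 0.

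Genes that work with the family were read from the same fit, and 1 passed the test. Fau and Rack1, which encode ribosomal proteins under symbols outside the naming pattern, had changes of -0.12 and -0.13. Among 19 elongation factor and other TOP mRNA genes tested, 0 passed, and the median was -0.092. At an unadjusted p under 0.05, 2 were lower (10.5% against 11.4% of all features) and 0 higher (against 12.3%). The lowest were Eef1b2 (-0.38 ± 0.11), Eef1a1 (-0.32 ± 0.11), which brings aminoacyl-tRNA to the ribosome, Npm1 (-0.26 ± 0.094), a nucleolar chaperone, and Eef1g (-0.23 ± 0.10). Of 77 genes tested that were taken as mitochondrial ribosomal by symbol alone (Mrpl or Mrps with a number), 0 passed, and the median was -0.042. At an unadjusted p under 0.05, 4 were lower (5.19% against 11.4% of all features) and 0 higher (against 12.3%). The lowest of these were Mrps36 (-0.46 ± 0.095, adjusted p 0.11) and Mrps25 (-0.43 ± 0.10, adjusted p 0.12).

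Among 16 genes of mTOR signalling and TOP mRNA regulation, 1 passed, 6.25% of the list against 2.14% of all features. This was Ddit4 (Redd1), a stress-induced inhibitor of mTORC1. It was at 4.65 and 4.65 in Venus-positive cells, against 5.83 and 5.83 in Venus-negative cells, 2.27-fold lower (-1.18 ± 0.093, adjusted p 0.035). The replicates of each fraction were almost identical, and the change without any 1 array stayed at -1.18. The adjusted p was between 0.13 and 0.17 in those fits and 0.14 without the filter on dim probes, and 0 of all features passed in any of these fits. Larp1 was at -0.17 ± 0.11, Mtor at -0.062 ± 0.13 and the S6 kinase gene Rps6kb1 at 0.099 ± 0.095, none past the test. Of 9 genes of the Myc network, in which Myc proteins drive and Mxd proteins restrain ribosome production, 0 passed. At an unadjusted p under 0.05, 1 was higher and 1 lower, 11.1% each, against 12.3% and 11.4% of all features. Myc had a change of -0.089 ± 0.15, Mycn -0.077 ± 0.12, Mycl -1.26 ± 0.42 (adjusted p 0.19) and Mxd3 0.74 ± 0.22 (adjusted p 0.17). Of 10 p53 targets 0 passed, and 0 had an unadjusted p under 0.05, including Cdkn1a (0.13 ± 0.10) and Mdm2 (0.061 ± 0.10).

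**Figure D4:**
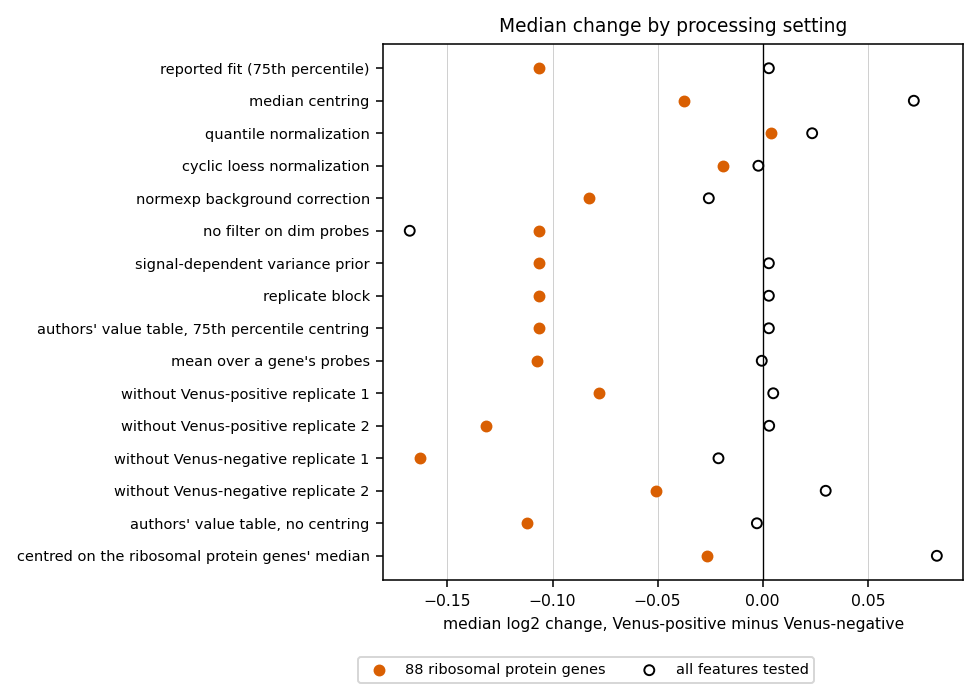
Median log2 change (Venus-positive minus Venus-negative) over the 88 ribosomal protein genes (filled) and over all features tested (open) under the reported fit and each alternative. The members' median runs from -0.16 to 0.0040, and turns positive under quantile normalization only.

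Cell type markers were read from the same fit, and those of some lists passed the test. Kdr was at 6.06 and 6.08 in Venus-positive cells, against 5.72 and 5.55 in Venus-negative cells, and was well above background on all 4 arrays. Its change of 0.44 ± 0.11 did not pass (adjusted p 0.14). Of 12 genes of Flk-1+ mesoderm and endothelium, 3 passed, all higher, against 2.14% of all features past the test in either direction. The changes of 2 were below 0, Etv2 (-1.50 ± 0.26, adjusted p 0.085) and Tal1 (-0.20 ± 0.11). Summed signals of the 12 were 301 and 321 times the arrays' 75th percentile in Venus-positive cells, against 265 and 239 in Venus-negative cells. Of 11 primitive streak genes, all 11 changes were below 0 and 7 passed, against 2.14% of all features past the test in either direction. Their sums were 17.3 and 11.8 in Venus-positive cells, against 64.3 and 53.6 in Venus-negative cells. Of 9 mitotic genes tested 0 passed and 5 were higher at an unadjusted p under 0.05, 55.6% against 12.3% of all features. Sums over 10 mitotic genes were 264 and 256 in Venus-positive cells, against 209 and 163 in Venus-negative cells. Sums over 12 stromal genes of the kind OP9 cells express were 63.9 and 46.5 in Venus-positive cells, against 76.4 and 71.6 in Venus-negative cells. Of the 11 stromal genes tested 0 passed. At an unadjusted p under 0.05, 1 was lower (9.09% against 11.4% of all features) and 0 higher (against 12.3%). Sums over 10 blood genes were 49.96 and 56.2 in Venus-positive cells, against 52.3 and 108 in Venus-negative cells, and Ptprc was not well above background on any array. Of the 9 blood genes tested 0 passed. At an unadjusted p under 0.05, 1 was lower (11.1% against 11.4% of all features) and 0 higher (against 12.3%). Of 9 pluripotency genes 1 passed, lower, and 7 changes were below 0. Their sums were 31.7 and 21.6 in Venus-positive cells, against 78.8 and 51.1 in Venus-negative cells. The part of these differences in the ribosomal protein values was not tested.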

How the data were processed

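Total RNA of each sorted fraction was labelled with Cy3 and hybridised to single-colour arrays, 4 in all, per the labels' protocols. The deposited scanner tables hold intensity values written by Agilent Feature Extraction (version 10.10.1.1). Per the file headers, background was subtracted within each array and no scaling between arrays was done for the processed signal. The intensity table of the authors equals that signal times 1 constant per array.

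From log2 processed signal the 75th percentile of its array was subtracted. Control spots and outlier spots were left out and spots of a probe averaged. A probe entered the test if both arrays of a fraction had it well above background. Symbols came from RefSeq (GRCm38.p6), and the probe with the highest mean signal represented a gene. Tests between the fractions used limma (3.58.1, with R 4.3.3; lmFit, eBayes, Benjamini-Hochberg over all 23548 features, threshold 0.05), tested on simulated data. SE is the moderated standard error. Probes of a gene were fitted in a separate run over 27899 probes. Alternatives were median centring, quantile, cyclic loess, normexp (offset 50, on median signals since the tables hold no mean signal), no filter on dim probes, a signal-dependent prior, a replicate block, the authors' table, the mean over a gene's probes, and leaving out each array. The authors' table without centring and centring on the family's median were added after seeing the data. Promoters were read with Python 3.11.15 and pandas 2.3.3, and plots drawn with matplotlib 3.10.9. The 4 arrays limit the precision, and between 50.7% and 53.0% of spots lay well above background.

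Members and lists were chosen with earlier results of these data known. Genes named were members with the 10 most negative and 10 most positive changes, paralogs with their parents, members with developmental mutants, stalk and 5S proteins, members not above background throughout, the 5 with most discordant probes, and from the other lists those past the threshold and up to 4 with the largest changes. Larp1, Mtor, Rps6kb1, Myc, Mycn, Cdkn1a and Mdm2 were named for their roles, and the Rpl17, Rpl7a and Rpl31 probes after their values were seen. 1 member, which stays in the counts and medians, and 1 further gene are not reported here.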

Additional observations from a re-analysis of the deposited data

How the results depend on the processing

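The median change of the 88 genes kept its sign except under quantile normalization. It was -0.11 as reported, -0.037 with median centring, 0.0040 with quantile normalization, -0.019 with cyclic loess, and between -0.16 and -0.051 when each array was left out in turn. The cause of these shifts was not tested. The number of members past the threshold was 0 as reported, 1 with normexp and 6 with a signal-dependent variance prior, and 0 in each fit that left out 1 array, in which 0 of all features passed. With the replicate number as a block the count stayed 0, with 934 of all features called. At an unadjusted p under 0.05, 1 member was higher, against 16.9% of all features, and 9 lower, against 15.4%. Deviations of same-numbered arrays from their fraction's mean correlated at r = 0.41 over all features and 0.81 over the members, but with 2 pairs and no stated shared batch the numbers are not taken to pair the samples. The authors' table with the same centring gave the reported values.

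The number of members with a change below 0, 75 of 88 as reported, was 38 under quantile normalization, 55 with cyclic loess, 60 with median centring and 67 with normexp. Among the genes taken by the naming rule, which holds only some of the members and also other genes, the following turned in sign. Under quantile normalization they included Rack1 (0.0042), Rpl11 (0.030), Rpl27a (0.013), Rpl3 (0.0013), Rpl31 (0.035), Rpl36a (0.0059), Rpl5 (0.038), Rpl7 (0.048), Rplp1 (0.062), Rplp2 (0.063), Rps27 (0.0090), Rps6 (0.10) and Rpsa (0.11). With cyclic loess they included Rpl11 (0.0031), Rpl31 (0.0018), Rpl5 (0.033), Rpl7 (0.025), Rplp1 (0.042), Rplp2 (0.032), Rps6 (0.070) and Rpsa (0.079). With median centring they included Rpl5 (0.051), Rpl7 (0.0082), Rplp1 (0.013), Rps6 (0.050) and Rpsa (0.046), and with normexp they included Rpl5 (0.018), Rplp1 (0.00034) and Rps6 (0.024). With the mean over a gene's probes they included Rpl13a (-0.014), Rpl17 (-0.17), Rpl39 (-0.032), Rps15a (-0.13), Rps18 (-0.0081) and Rps6 (0.010). When arrays were left out, changes of genes under the rule spanned 0 for Phlda3, a p53 target (-0.29 to 0.022), Rpl10l (-0.998 to 0.37), Rpl13a (-0.076 to 0.13), Rpl15 (-0.047 to 0.069), Rpl23a (-0.038 to 0.058), Rpl28 (-0.028 to 0.054), Rpl39 (-0.083 to 0.15), Rpl39l (-0.28 to 0.70), Rpl5 (-0.13 to 0.093), Rplp2 (-0.14 to 0.0034), Rps15a (-0.071 to 0.10), Rps18 (-0.020 to 0.064), Rps4l (-0.41 to 0.21), Rps4x (-0.078 to 0.093), Rps6 (-0.045 to 0.0066) and Rpsa (-0.070 to 0.023). None of these changes passed the test in the reported fit.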
